A study of Mus musculus with 4 samples.

Results

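The kinesin motor superfamily was examined in lungs that carried metastases of mouse triple-negative breast cancer (TNBC). Its members were taken by name as the protein-coding genes whose symbol is Kif followed by a digit, 39 of the 56748 genes in the count table, and they were divided by known role into 12 mitotic, 13 transport, 7 cilium and 7 other kinesins. All mice were female BALB/cJ, immunocompetent, 7 weeks old when the luciferase-carrying TNBC line 4T1-FLuc was given through the tail vein. The 2 saline samples came from the control group, whose treatment label is PBS. In the 2 ADC/cmLumiOpto samples the treatment label names cmLumi-Olap together with CD276-DM1 at 16 mg/kg, whereas the methods give a lower dose and do not name Olap. CD276-DM1 is an antibody-drug conjugate (ADC) that carries mertansine, an inhibitor of microtubule assembly, and cmLumiOpto is a gene therapy that depolarizes the mitochondria of cancer cells. Treatment ran for 3 weeks, the labels describe harvested tumor cells and the methods dissociated lung tissue, and the methods give 4 biological samples per group, of which 2 per group were analysed here. Neither source says which mouse gave which sample, so p-values measure only the spread between these samples.

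Kinesins are motor proteins, most of which use ATP to walk along microtubules or to shorten their ends. Mitotic kinesins build the spindle, move chromosomes and complete cytokinesis, and their genes are transcribed mainly in the late cell cycle. Transport kinesins carry vesicles, mitochondria and endosomes in cells at rest as well as in dividing cells, and others serve cilia, the slender projections that ciliated airway cells use to move mucus. Microtubules are also the structures that mertansine acts on.

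The 4 libraries held 15263375 to 19675436 counts. Levels are given as CPM, counts per 1000000 of the TMM-normalized library, in which the floor of 3 counts was 0.146 to 0.202 CPM, for counting error only. Of the 39 kinesin genes, 32 passed the expression filter and were tested, 4 had a few counts and 3 had 0 counts in all samples. Epithelial markers chosen for the tumor and markers of lung were detected in every sample. The summed level of 10 epithelial markers chosen for the tumor was 3162 and 3473 CPM in the saline samples and 3087 and 2986 CPM after ADC/cmLumiOpto. Most of it came from Krt8 and Krt18, and its members went both ways, with log2 fold changes from -1.29 for Cdh3 to 2.02 for Cldn7. Whether these markers came from tumor cells alone was not tested, so the sum is no measure of tumor content. The summed level of 11 alveolar and airway markers was 2739 and 442 CPM against 11900.2 and 7939 CPM, so lung markers took a larger share in the treated samples. In bulk samples fewer cells of a type and less RNA per cell cannot be told apart. Across the transcriptome log2FC declined with gene length (Spearman's rho -0.34 over 15320 genes, which are no independent replicates), where log2FC is the log2 fold change of ADC/cmLumiOpto over saline. Tested kinesin genes are long, with a median of 7209 bases against 4113 for all tested genes, and log2FC values with this trend removed are given for the tested kinesins with the larger differences, not for the other gene lists.

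Reads on kinesin genes made up 0.137% and 0.147% of all counts under saline and 0.101% and 0.118% under ADC/cmLumiOpto. No kinesin had an adjusted p under 0.05 in the quasi-likelihood test of edgeR (Benjamini-Hochberg over all tested genes), where the share of all genes called was 0%. At an unadjusted p under 0.05, 13 of the 32 tested kinesins (40.6%) were lower after ADC/cmLumiOpto, against 12.2% of all tested genes, and 0 were higher, against 11% of all tested genes. With the trend on gene length removed, 9 of 32 (28.1%) were lower, against 9.87% of all genes. Without saline replicate 2 the count was 8 of 33, against 5.09% of all genes in that fit, and all 8 were among the 13. In 23 of the 32 kinesins both treated values were under both saline values, against 28.8% of all tested genes, and in 3 they lay above both, against 28.1%. DESeq2 with its Wald test and the edgeR exact test each gave 5 kinesins an adjusted p under 0.05, against 8.69% and 7.64% of all genes, and these were in both cases Kif4, Kif18b, Kif20a, Kif3c and Kif26b. Without the expression filter edgeR gave 7 of 36, against 8.84% of all genes, with Kif23 and Kif13a added, and with a block for the replicate number it gave 2, Kif4 and Kif26b, against 3.96%.

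**Figure D1:**
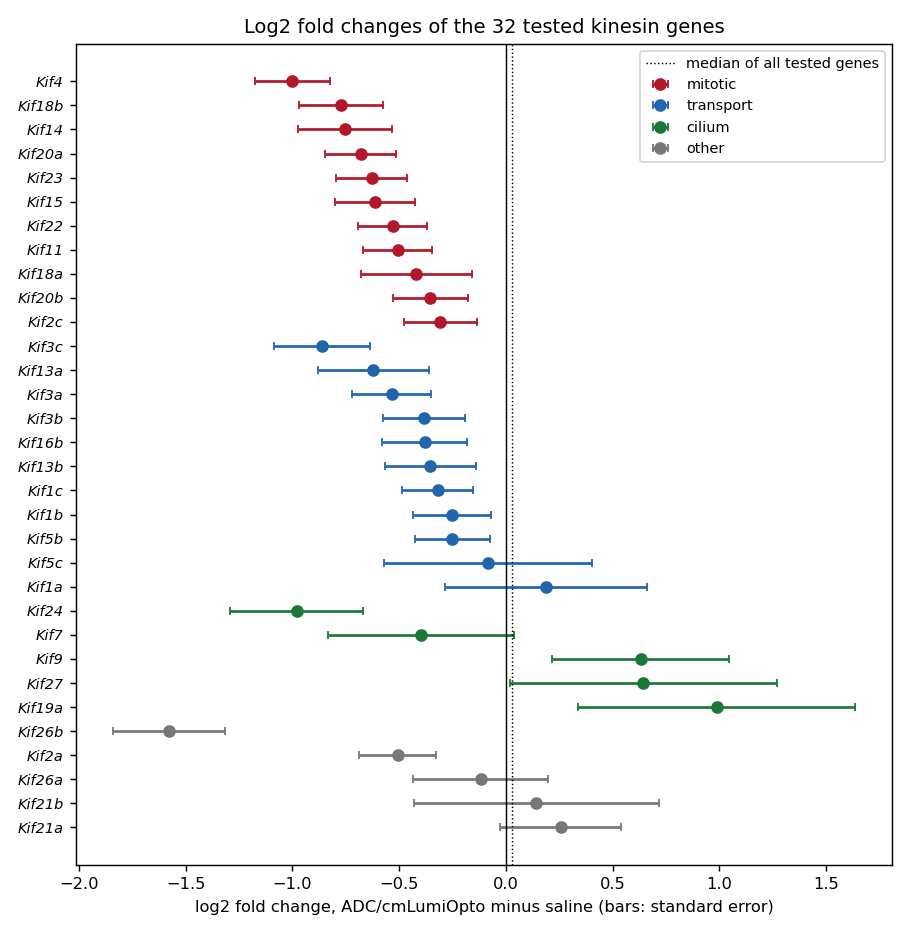
Log2FC values (ADC/cmLumiOpto minus saline) of the 32 tested kinesin genes from the edgeR fit, colored by class, with standard errors as bars and the median of all tested genes (0.028) as a dotted line. All 11 tested mitotic kinesins lay below 0, from -1.0 for Kif4 to -0.31 for Kif2c, whereas the cilium kinesins Kif9, Kif27 and Kif19a lay above 0.

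The mitotic kinesins were the class in which every tested member had both treated samples below both saline samples (11 of 11, against 28.8% of all tested genes), and 8 of the 11 were lower at an unadjusted p under 0.05, against 12.2% of all tested genes. Their median log2FC was -0.61, against 0.028 over all tested genes, and -0.44 with the length trend removed. Summed over the class, the level was 467 and 473 CPM under saline and 317 and 309 CPM under ADC/cmLumiOpto. The summed treated level was 66.6% of the saline level.

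Chromokinesins, which bind chromosome arms, held the largest difference of the class. Kif4 (ENSMUSG00000034311, chromosome X from 99669343 to 99770820 in the coordinates of the count table), which also organizes the midzone of the spindle, was at 40.9 and 47.2 CPM in the saline samples and 21.8 and 22.3 CPM in the ADC/cmLumiOpto samples. Its log2FC, given here and for other genes ± its standard error, was -1.0 ± 0.18 (edgeR adjusted p = 0.116), which is 50% of the saline level. Its adjusted p was 0.002 in DESeq2 and 0.00273 in the edgeR exact test, and the alternatives spanned 0.000625 to 0.36. The treated samples of Kif4 were alike and well apart from both controls. Over the alternatives, removal of the length trend among them, the log2FC of Kif4 stayed between -1.11 and -0.89. Kif22 (ENSMUSG00000030677, chromosome 7), which pushes chromosomes toward the spindle equator, lay at 55.5 and 50.01 CPM and 36.9 and 36.2 CPM in the same order of groups, a log2FC of -0.53 ± 0.16 (edgeR adjusted p = 0.143) and -0.47 without the length trend.

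Motors that set up and hold the bipolar spindle differed by less than Kif4. Kif11 (ENSMUSG00000012443, chromosome 19), the plus-end motor also known as Eg5 that slides spindle poles apart, had the highest CPM of the mitotic kinesins, with 87.1 and 87.9 CPM in the saline samples. After treatment it was at 65.6 and 57.5 CPM, a log2FC of -0.51 ± 0.16 (edgeR adjusted p = 0.1504), and the gap between the groups was wider than the gap within either group. For Kif15 (ENSMUSG00000036768, chromosome 9), which keeps the spindle bipolar beside Kif11, the values were 35.4 and 36.7 CPM and then 25.8 and 21.4 CPM, with a log2FC of -0.61 ± 0.19. Without the length trend the log2FC values were -0.32 for Kif11 and -0.32 for Kif15, and neither was then lower at an unadjusted p under 0.05.

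Among the motors of cytokinesis, Kif20a (ENSMUSG00000003779, chromosome 18), a midzone motor also called MKLP2, was at 50.4 and 51.8 CPM in the saline samples and 34.1 and 29.7 CPM after treatment. The log2FC was -0.68 ± 0.17 (edgeR adjusted p = 0.123), and it was nearly the same without the length trend (-0.66). Kif23 (ENSMUSG00000032254, chromosome 9), the motor subunit of centralspindlin, showed 56.6 and 61 CPM and 35.3 and 40.7 CPM, a log2FC of -0.63 ± 0.17. In Kif14 (ENSMUSG00000041498, chromosome 1), a midbody motor, the values were 25.3 and 21.2 CPM and 14.6 and 13.02 CPM, a log2FC of -0.75 ± 0.22. Without the length trend Kif23 was at -0.44 and Kif14 at -0.48, and Kif14 was then no longer lower at an unadjusted p under 0.05. Kif20a, Kif23 and Kif14 separated the groups clearly, whereas Kif20b (ENSMUSG00000024795), which acts in abscission, was closer, at 32.1 and 34.2 CPM and 24.7 and 27.2 CPM, a log2FC of -0.35 ± 0.18 (edgeR adjusted p = 0.276) and -0.20 without the length trend.

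Kinesins that shorten or cap microtubule ends held both large and small differences. Kif18b (ENSMUSG00000051378, chromosome 11), which limits the length of astral microtubules, was at 31.3 and 28.2 CPM in the saline samples and 16.3 and 18.5 CPM after treatment, a log2FC of -0.77 ± 0.20 (edgeR adjusted p = 0.123) and -0.82 without the length trend. Its relative Kif18a (ENSMUSG00000027115), which damps chromosome oscillation, was at 14.4 and 19.7 CPM and 13.7 and 11.8 CPM, where the spread within the saline group exceeded the gap between the nearest samples of the groups. The log2FC of Kif18a was -0.42 ± 0.26 (edgeR adjusted p = 0.366), and -0.16 without the length trend. Kif2c (ENSMUSG00000028678), the centromeric depolymerase MCAK, had the smallest difference of the tested mitotic kinesins, at 38.2 and 34.8 CPM and 28.6 and 30.4 CPM, a log2FC of -0.31 ± 0.17 (edgeR adjusted p = 0.3202) and -0.28 without the length trend. Kif2b, a close relative, was at 0 counts in all 4 samples, which allows a level of up to between 0.146 and 0.202 CPM.

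**Figure D2:**
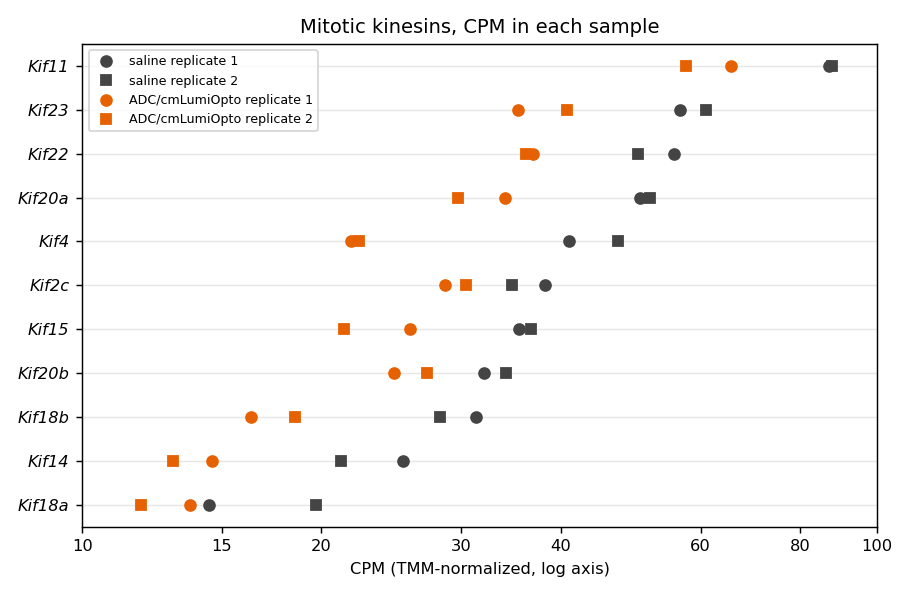
CPM of the 11 tested mitotic kinesins in each sample on a log axis, with saline samples in gray and ADC/cmLumiOpto samples in orange, replicate 1 as circles and replicate 2 as squares. In each row both orange symbols lie left of both gray ones, with the widest gap for Kif4 and the narrowest for Kif18a.

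Kinesins with other names and the partners of mitotic kinesins were looked at in the same fit. Cenpe (ENSMUSG00000045328), the kinetochore kinesin of chromosome alignment, was at 96.5 and 95.5 CPM in the saline samples and 51.6 and 60.7 CPM after treatment, a log2FC of -0.77 ± 0.17 (edgeR adjusted p = 0.116). Kifc1 (ENSMUSG00000079553), a minus-end motor that clusters centrosomes, had a log2FC of -0.47 ± 0.18, and its near relative Kifc5b, with which it could share reads, of -0.34. Of the 6 kinesins with other names, 2 were lower at an unadjusted p under 0.05 and 0 higher, against 12.2% and 11% of all tested genes. Of 31 spindle and midbody partners of mitotic kinesins, 17 were lower at an unadjusted p under 0.05 and 0 were higher, against the same 12.2% and 11%, with a median log2FC of -0.50. Ckap5, a microtubule polymerase, Anln, a scaffold of the cleavage furrow, Prc1, which bundles midzone microtubules and binds Kif4, and Cenpf, a kinetochore protein, had the smallest p, with log2FC values of -1.05, -0.90, -0.85 and -0.93. Aurka, Birc5, Spc24, Spc25, Nuf2 and Ska1, named after their values were seen, overlapped between the groups, with log2FC values between -0.012 and 0.26. Ckap5, Anln, Prc1 and Cenpf are long genes, with 8225 to 15433 bases. The overlapping genes have 2531 to 3402 bases, apart from Nuf2 with 6341. The length trend was not removed for the partners, and its part in this split was not tested.

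Markers of proliferation moved with the mitotic kinesins. Their summed level over 10 genes was 1738 and 1749 CPM under saline and 1267 and 1112 CPM under ADC/cmLumiOpto, and 5 of the 10 were lower at an unadjusted p under 0.05 and 0 higher, against 12.2% and 11% of all tested genes. Foxm1, a transcription factor of the late cell cycle, Mki67, Top2a and Ccnb1 had the smallest p, with log2FC values of -0.98, -0.93, -0.83 and -0.65. The mean log2 CPM of the 11 mitotic kinesins minus that of these markers was -1.90 and -1.90 under saline and -2.06 and -1.93 under ADC/cmLumiOpto, so the kinesins lay slightly lower against the markers after treatment, by less in replicate 2 than in replicate 1. The kinesins are longer, with a median of 6957 bases against 4575.5 for the markers. No length trend was removed from these means, so the small shift cannot be read apart from that trend. Whether fewer dividing cells account for the kinesin values was not tested.

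Promoters of the mitotic kinesins were compared with those of the other classes, since their levels moved together. Promoter sequences of RefSeq on GRCm38.p6 were at hand for 31 of the 39 kinesins, from 250 bases before to 50 bases after each annotated start. Kif20a was without an entry. The 11 mitotic kinesins counted here therefore lack it and include Kif2b, which had 0 counts and was not tested. Late cell cycle genes are known to carry the cell cycle homology region (CHR), searched here as TTTGAA or TTCGAA on either strand, and CCAAT boxes, searched as CCAAT on either strand. No CHR match overlapped a CCAAT match in these promoters. A CHR match lay within 50 bases of the start in 7 of 11 mitotic kinesins (63.6%), 1 of 10 transport kinesins (10%), 1 of 5 cilium kinesins and 1 of 5 others, against 6.12% of 27025 genes with a promoter entry and 5.08% of the protein-coding ones. This window was chosen after the matches were seen. Over the whole 300 bases the shares were 81.8% of mitotic kinesins, 10% of transport kinesins and 21.7% of all genes. CCAAT was found in 63.6% of the mitotic and 30% of the transport kinesins, against 41.1% of all genes.

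The sites near the start of these 7 mitotic kinesins are shown since most of the class shared them, with CHR matches in capitals and bases given 5′ to 3′ on the strand of the gene. Kif11 (chr19:37376302-37376381, plus strand) and Kif22 (chr7:127042421-127042500, minus strand) are given as the 80 bases before the start, with CCAAT in capitals as well, and since all these matches lie on the opposite strand they read ATTGG and TTCAAA here. In both the CCAAT match lay upstream of the CHR match, at 45 and 19 bases before the start in Kif11 and at 54 and 17 bases in Kif22.
Kif11: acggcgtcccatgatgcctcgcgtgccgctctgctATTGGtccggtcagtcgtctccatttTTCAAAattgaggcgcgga
Kif22: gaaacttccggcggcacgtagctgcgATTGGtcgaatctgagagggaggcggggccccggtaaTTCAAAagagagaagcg

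In Kif15 (chr9:122951050-122951079, plus strand) the near CHR match began 19 bases before the start, as in Kif11, and in the other 4 it lay just after the annotated start. Kif15 had a further CHR match 234 bases before the start. The 30 bases around the match, with CHR matches alone in capitals, are given for Kif15, Kif4 (chrX:100626072-100626101, plus strand), Kif23 (chr9:61946780-61946809, minus strand), Kif18b (chr11:102925104-102925133, minus strand) and Kif20b (chr19:34922353-34922382, plus strand), whose window holds a pair of matches side by side.
Kif15: tggggcgccaaaTTCAAAtctgcggccatc
Kif4: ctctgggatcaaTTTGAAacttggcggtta
Kif23: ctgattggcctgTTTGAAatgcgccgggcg
Kif18b: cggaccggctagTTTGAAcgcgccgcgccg
Kif20b: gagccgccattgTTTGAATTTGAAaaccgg

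Of the 12 kinesins with a promoter entry that were lower at an unadjusted p under 0.05, 8 had a CHR match within 50 bases of the start (66.7%), and of the 15 other tested kinesins 2 did (13.3%), against 6.12% of all genes. This is the window chosen after the matches were seen. Over the whole 300 bases the counts were 9 of the 12 (75%) and 4 of the 15 (26.7%), against 21.7% of all genes. The 8 were mitotic kinesins apart from Kif24 and Kif26b, so this split largely repeated the classes and is no separate support. Kif20b had a match and a small difference, and Kif14 had a match 228 bases before the start and a log2FC of -0.75, so matches and differences did not run strictly in parallel. A match is a description of the letters and not a measured binding site.

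**Figure D3:**
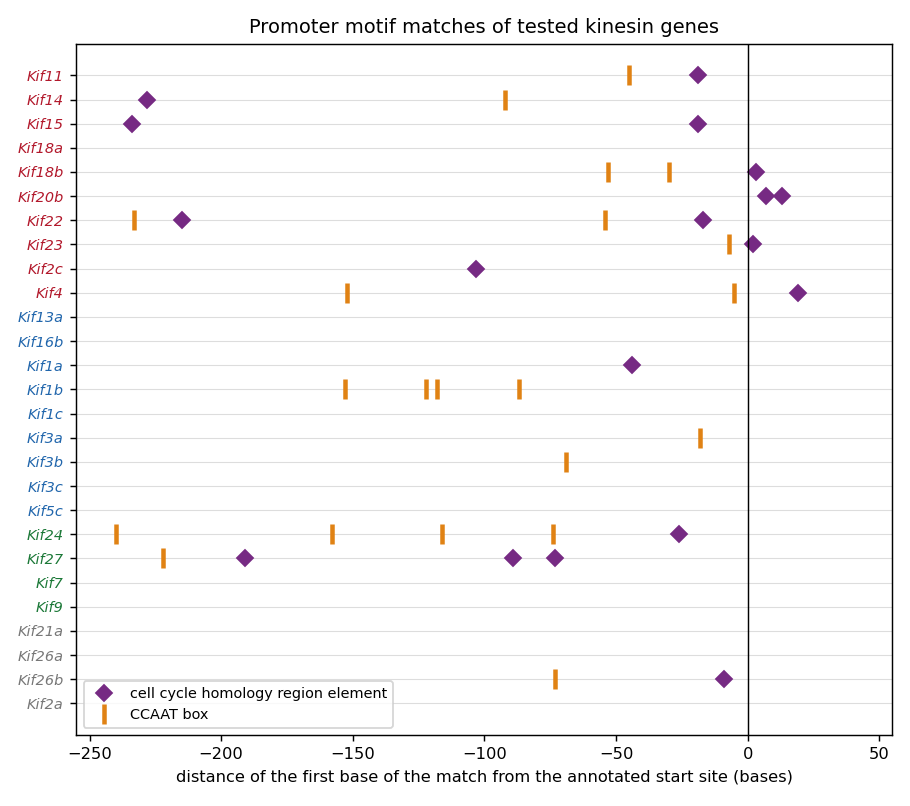
Matches to the CHR element (diamonds) and CCAAT box (bars) in the promoters of tested kinesins, plotted as the distance in bases of the first base of the match from the annotated start, with gene names colored red for mitotic, blue for transport, green for cilium and gray for other kinesins. Diamonds near the start are mostly in red rows, and among blue rows only Kif1a has one within 50 bases.

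Transport kinesins lay lower after treatment as well, with 10 of 11 tested members below 0 and 9 of 11 with both treated samples below both saline samples, against 28.8% of all tested genes. Their median log2FC was -0.35 and 2 of them, Kif3a and Kif3c, were lower at an unadjusted p under 0.05, a count near the 12.2% of all tested genes. With the length trend removed the median was -0.15, and Kif3a and Kif3c were still lower at an unadjusted p under 0.05. The summed level of the class was 779 and 914 CPM under saline and 615 and 713 CPM under ADC/cmLumiOpto.

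Kinesin-2, the motor of intraflagellar transport, showed the clearest differences among them. Kif3a (ENSMUSG00000018395, chromosome 11), the shared motor subunit, was at 41.7 and 51.8 CPM in the saline samples and 30.7 and 33.9 CPM after treatment. Its log2FC was -0.53 ± 0.18 (edgeR adjusted p = 0.167), and -0.58 without the length trend. Kif3b (ENSMUSG00000027475), its usual partner, was at 59.1 and 73.4 CPM and 46.02 and 55.4 CPM, a log2FC of -0.38 ± 0.19, and the nearest samples of the groups were close. The alternative partner Kif3c (ENSMUSG00000020668, chromosome 12) had the largest difference of the transport kinesins, from 32.1 and 41.6 CPM to 17.9 and 22.7 CPM, a log2FC of -0.86 ± 0.22 (edgeR adjusted p = 0.123, 0.0335 in DESeq2 and 0.00744 to 0.482 over the alternatives), and -0.69 without the length trend. Kif17, which works as a homodimer, had 1 and 3 counts under saline and 5 and 6 under ADC/cmLumiOpto and was not tested. Kifap3, the adaptor subunit that joins Kif3a and Kif3b, had overlapping groups and a log2FC of -0.29 ± 0.21.

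Kinesin-1, the main carrier of vesicles and mitochondria, was represented by Kif5b (ENSMUSG00000006740, chromosome 18), its ubiquitous heavy chain. Kif5b was at 169 and 214 CPM in the saline samples and 160.4 and 162 CPM after treatment, a log2FC of -0.25 ± 0.18 (edgeR adjusted p = 0.424) that was -0.05 without the length trend. The spread between the saline samples of Kif5b was larger than the gap between the groups. The neuronal heavy chains had few counts. Kif5c had 29 and 20 counts under saline and 26 and 31 under ADC/cmLumiOpto, and Kif5a had 2 and 5 counts under saline and 2 and 17 under ADC/cmLumiOpto and was not tested. Kinesin light chains Klc1, Klc2 and Klc4 had log2FC values of 0.18, 0.32 and 0.34, opposite in sign to Kif5b, and Klc3 of -0.15, none at an unadjusted p under 0.05.

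In kinesin-3, Kif1c (ENSMUSG00000020821, chromosome 11), a carrier of dense core vesicles and integrins, had the highest level of all kinesins, at 242 and 266 CPM in the saline samples and 188 and 219 CPM after treatment. Its log2FC was -0.32 ± 0.17 (edgeR adjusted p = 0.293), and -0.15 without the length trend. Kif13a (ENSMUSG00000021375), an endosome carrier, differed more, at 46.3 and 71.4 CPM and 32.6 and 43.8 CPM, but its saline samples were far apart, and the log2FC of -0.62 had a standard error of 0.26 and was -0.27 without saline replicate 2 and -0.42 without the length trend. For Kif1b, a carrier of mitochondria, the log2FC was -0.25 ± 0.18 and turned to 0.11 without the length trend. Kif13b and Kif16b, carriers of vesicles and early endosomes, had log2FC values of -0.35 and -0.38, and -0.051 and -0.15 without the length trend. Kif1a, the axonal carrier of synaptic vesicle precursors, had 53 and 26 counts under saline and 46 and 65 under ADC/cmLumiOpto, and its groups overlapped. Neuronal and neuroendocrine markers were likewise low, with a summed level of 24.3 to 38.8 CPM over 10 genes and 5 of the 10 tested.

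**Figure D4:**
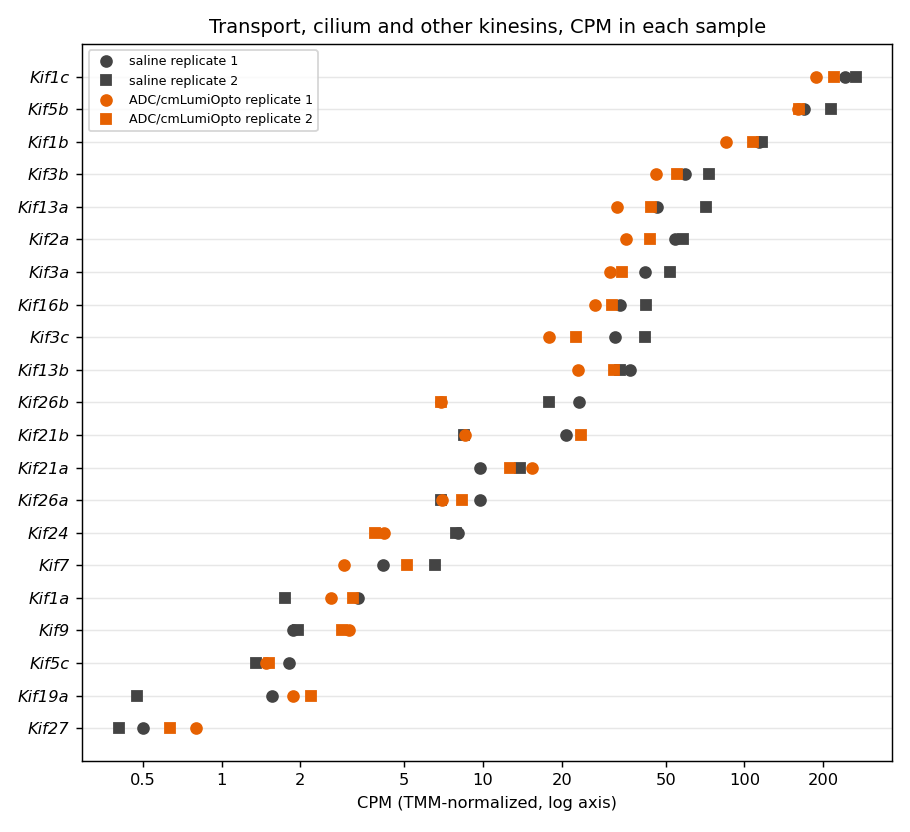
CPM of the 21 tested transport, cilium and other kinesins in each sample on a log axis, with saline samples in gray and ADC/cmLumiOpto samples in orange, replicate 1 as circles and replicate 2 as squares. Kif1c and Kif5b lie at the top with more than 100 CPM in every sample, Kif26b and Kif24 show the widest gaps toward lower treated values, and Kif9, Kif19a and Kif27 at the bottom have both orange symbols to the right.

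Of 25 kinesin adaptors and light chains, 23 were tested, 1 was lower at an unadjusted p under 0.05 and 0 were higher, below the 12.2% and 11% of all tested genes, with a median log2FC of -0.073. The 1 gene was Dennd4c, a Rab10 activator, with a log2FC of -0.59 ± 0.20. Rhot2 and Madd, which link kinesins to mitochondria and to synaptic vesicle precursors, followed in order of p with log2FC values of 0.46 and 0.47. Of 27 genes of dynein and dynactin, the minus-end counterpart of kinesin transport, 26 were tested, 3 were lower and 1 higher at an unadjusted p under 0.05, no more than the 12.2% and 11% of all tested genes, with a median log2FC of -0.12. Dync1h1, the dynein heavy chain, had a log2FC of -0.77 ± 0.16 (edgeR adjusted p = 0.116), Pafah1b1, its regulator LIS1, of -0.45, and Dync1li1 of -0.45. Dynll1, a short light chain, was higher with 0.84 ± 0.22.

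The 5 tested cilium kinesins went in both directions, with a median log2FC of 0.63 that became -0.36 when 10 counts were required in every sample, which left 3 of the 5. Kif9 (ENSMUSG00000032489, chromosome 9), a kinesin of the motile axoneme, had 30 and 29 counts under saline and 54 and 59 under ADC/cmLumiOpto, a log2FC of 0.63 ± 0.41 (edgeR adjusted p = 0.391). For Kif19a, which trims the ciliary tip, there were 25 and 7 counts under saline and 33 and 45 under ADC/cmLumiOpto, a log2FC of 0.99 ± 0.65 that ran from 0.38 to 2.08 with single samples left out. Kif27 had 8 and 6 counts under saline and 14 and 13 under ADC/cmLumiOpto, a log2FC of 0.64 ± 0.63. In these 3 both treated samples lay above both saline samples in CPM, against 28.1% of all tested genes, and none was at an unadjusted p under 0.05. Neither Kif19a nor Kif27 reached the level of the expression filter in both saline samples, so they were tested through the treated samples. Their direction, and its part in the class median, is therefore no separate support.

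Markers of ciliated airway cells moved the same way, with a summed level over 15 genes of 19.6 and 9.77 CPM under saline and 69.5 and 49.5 CPM under ADC/cmLumiOpto. Of the 12 that were tested, 12 had a log2FC above 0, 5 of them at an unadjusted p under 0.05, against 11% of all tested genes, and none of the 15 was at 0 in all samples. Among the tested markers only Tppp3, Foxj1, Dnai2 and Cfap43 reached the level of the expression filter in both saline samples. The others passed through the treated samples, as did Tekt4 with 2 and 0 counts against 32 and 14. Their direction was thus partly set by the filter, and the counts of markers above 0 are no separate support. Their part in the values of Kif9, Kif19a and Kif27 was not tested. Kif6, also of motile cilia, had 1 and 0 counts under saline and 2 and 1 under ADC/cmLumiOpto, and Kif19b had 1 count in all, so neither was tested.

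The remaining pair of tested cilium kinesins had log2FC values below 0. Kif24 (ENSMUSG00000028438, chromosome 4), a centriolar depolymerase that restrains the growth of cilia, was at 8.002 and 7.89 CPM in the saline samples and 4.19 and 3.85 CPM after treatment. Its log2FC was -0.98 ± 0.31 (edgeR adjusted p = 0.148), close to that of Kif4, and it was -0.78 without the length trend. The promoter of Kif24 is shown because it was the one kinesin promoter with the TTCGAA form of the CHR, 26 bases before the start, with CCAAT matches at 74 and 116 bases (chr4:41464849-41464978, minus strand, both motifs in capitals).
Kif24: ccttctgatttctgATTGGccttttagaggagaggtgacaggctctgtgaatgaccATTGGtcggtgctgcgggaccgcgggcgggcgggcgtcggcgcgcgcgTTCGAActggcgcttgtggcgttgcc

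Kif7, the ciliary regulator of Hedgehog signaling, had 66 and 97 counts under saline and 52 and 105 under ADC/cmLumiOpto, and its groups overlapped, with a log2FC of -0.40 ± 0.44.

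Among the 7 other kinesins, Kif26b (ENSMUSG00000026494, chromosome 1 from 178356690 to 178766765 in the coordinates of the count table), a kinesin of WNT5A-ROR signaling, had the largest difference of the whole superfamily. It was at 23.4 and 17.8 CPM in the saline samples and 6.91 and 6.88 CPM after treatment. The log2FC was -1.58 ± 0.26 (edgeR adjusted p = 0.116), which is 33.5% of the saline level, and it was -1.25 without the length trend. DESeq2 gave an adjusted p of 0.000138 and the edgeR exact test 0.00037, and the alternatives spanned 3.08e-05 to 0.194. Of 9 markers of fibroblasts and mural cells, 8 were lower and 1 higher at an unadjusted p under 0.05, against 12.2% and 11% of all tested genes. Lum, 1 of these 8, had overlapping groups. The summed level of the 9 was 5284 and 3696 CPM in the saline samples and 1867 and 1527 CPM after treatment, most of it from Col1a1, Col1a2 and Col3a1. The 1 higher gene was the mural marker Rgs5, with a log2FC of 1.16 ± 0.38, none of the 9 was at 0, and their part in the Kif26b values was not tested. Its relative Kif26a had overlapping groups at 9.69 and 6.88 CPM and 6.97 and 8.29 CPM, a log2FC of -0.12 ± 0.32.

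Kif2a (ENSMUSG00000021693, chromosome 13), a depolymerase of neurons and spindle poles, was at 54.3 and 57.97 CPM in the saline samples and 35.3 and 43.6 CPM after treatment, a log2FC of -0.51 ± 0.18 (edgeR adjusted p = 0.1701) that was -0.38 without the length trend and then not lower at an unadjusted p under 0.05. Kif21a and Kif21b, which restrain microtubule growth, had overlapping groups, with log2FC values of 0.26 ± 0.28 and 0.14 ± 0.57. Kif21b, which had the largest standard error of the 5 tested members of this class, was at 20.8 and 8.43 CPM and 8.56 and 23.6 CPM. It is expressed in lymphocytes, whose 12 markers summed to 57.5 and 20.3 CPM under saline and 119 and 52.7 CPM under ADC/cmLumiOpto, in another order of the treated samples. Myeloid markers summed to 3190.3 and 1909 CPM against 5814 and 10073 CPM, and endothelial markers to 571 and 452 CPM against 616 and 903 CPM, both in the same order within each group as Kif21b. The treated order of the myeloid sum rested largely on S100a8, at 422 and 3089 CPM, and S100a9, at 562 and 3814.5 CPM. Lyz2, Csf1r, Cd68 and Adgre1 were higher in ADC/cmLumiOpto replicate 1, and Ly6g, Csf3r, Itgam and Marco in replicate 2. The part of lymphocytes, myeloid and endothelial cells in the Kif21b values was not tested. Kif12, of kidney and liver epithelium, and Kif28 were at 0 counts in all samples.

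Levels of different genes were compared per length, as CPM per kilobase of gene length in the saline group. Kif1c led with 34.9, followed by Kif5b with 24, Kif3a with 13.04, and Kif20a, Kif3b and Kif11 with 11.8, 11.8 and 11.7. Those 3 neighbors did not differ beyond the spread of their samples. The 11 tested mitotic kinesins ranged from 1.74 for Kif18a to 11.8 for Kif20a. Of the cilium kinesins Kif7 had 1.16 and Kif24 0.991, which did not differ beyond the spread of the Kif7 samples, and of the others Kif2a with 8.78. In the ADC/cmLumiOpto group Kif1c and Kif5b were again highest, at 27.99 and 20.2, and Kif4 was at 3.99 where it had been at 7.99.

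The mitotic and transport classes were set side by side in each sample. The mean log2 CPM of the 11 tested mitotic kinesins was 5.27 and 5.29 under saline and 4.70 and 4.67 under ADC/cmLumiOpto, and that of the 11 transport kinesins was 5.17 and 5.26 against 4.75 and 5.0. The difference, mitotic minus transport, was 0.10 and 0.034 in the saline samples and -0.041 and -0.33 after treatment. Both treated values were under both saline values, but ADC/cmLumiOpto replicate 1 was close to saline replicate 2, and in that replicate the transport kinesins were low as well. Without ADC/cmLumiOpto replicate 2 the medians of the classes were nearly the same, -0.52 for the mitotic and -0.50 for the transport kinesins, so the gap between the class medians rested on that sample. Removing the length trend moved both medians toward 0, the mitotic from -0.61 to -0.44 and the transport from -0.35 to -0.15, and left Kif4, Kif18b, Kif20a, Kif22, Kif23, Kif3a, Kif3c, Kif24 and Kif26b lower at an unadjusted p under 0.05.

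**Figure D5:**
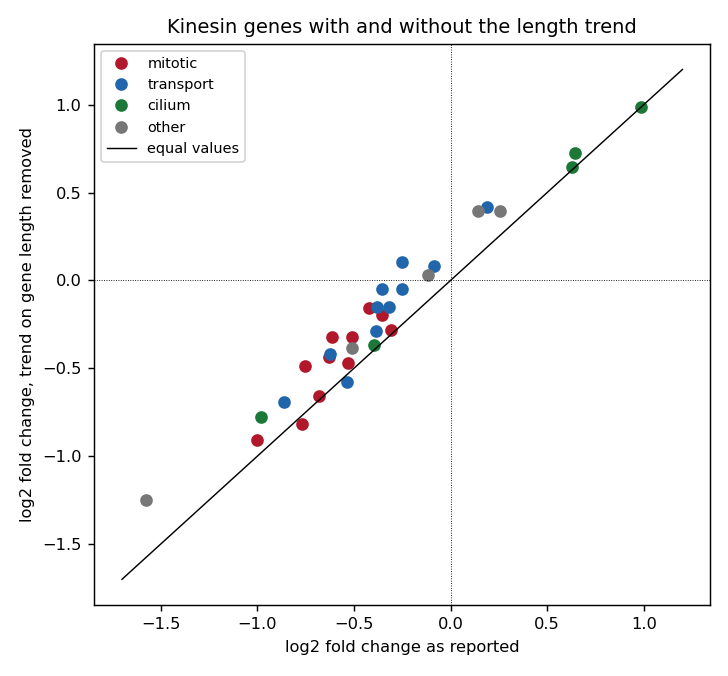
Log2FC values of the 32 tested kinesins as reported (horizontal axis) and with the trend on gene length removed (vertical axis), colored by class, with a line of equal values. Most mitotic and transport kinesins lie above the line, closer to 0 once the trend is removed, whereas Kif18b and Kif3a lie below it.

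Several kinesins overlap other expressed genes on the opposite strand in the coordinates of the count table, and the strand setting of the counting is not given in the sources used here. Kif20a shares 2327 bases with Cdc23, Kif3c 2617 bases with 1110002L01Rik, Kif2a 1229 bases with Dimt1 and Kif4 832 bases with Pdzd11, so reads from those stretches cannot be assigned with certainty. The pseudogenes of Kif4 and Kif22 had 0 counts in all samples.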

How the data were processed

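RNA from 4 samples was sequenced as poly-A libraries on an Illumina instrument, and alignment by the authors used HISAT2. Their deposited table holds unnormalized counts for 56748 genes. The counting program is not given in the sources used here. The methods name GRCm38 and the submitters' processing notes mm39. Of 52125 identifiers shared with GENCODE M21 on GRCm38, 1524 had the same start and end, so positions are those of the count table and promoters are those of RefSeq on GRCm38.p6.

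All genes entered edgeR 4.0.16 under R 4.3.3. Genes were kept by filterByExpr (minimum count 10, minimum total 15), which left 15320. Counts were normalized by TMM and compared by glmQLFit and glmQLFTest with Benjamini-Hochberg adjustment. The standard error is the log2 fold change divided by the square root of F. CPM used the TMM library sizes, and mean log2 CPM added 0.5 counts. Alternatives were DESeq2 1.42.0, library size alone, upper-quartile normalization, the edgeR exact test, 2 other filters, protein-coding genes only, a lowess trend (span 0.3) on gene length removed through offsets, a block for the replicate number, and each sample left out. Simulated data served to test the scripts. With 2 samples against 2, an exact two-sided permutation test cannot go below 0.333.

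The members, classes and lists were chosen with earlier results of these data known. The genes named are the members, with values per sample for the tested mitotic kinesins, for others at an unadjusted p under 0.05 and for the highest of each class, and at most 4 genes with the smallest p from each other list, apart from genes said to be named later, genes at 0 or under the filter and subunits named beside a member. Outside this rule, Krt8, Krt18, Lum, Rgs5 and the myeloid markers were named because of their values. Values per sample are also given for some further members.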

Additional observations from a re-analysis of the deposited data

How the results depend on the processing

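The settings were compared for the counts of genes and kinesins, the class medians and each tested kinesin. The quasi-likelihood test gave 0 genes at an adjusted p under 0.05 and 3553 at an unadjusted p under 0.05. Counts at an adjusted p under 0.05 were 1332 genes and 5 kinesins in DESeq2, 1170 and 5 in the edgeR exact test, 2259 and 7 without the expression filter, and 607 and 2 with the replicate block. With single samples left out, where the lone sample of a group is assumed to vary like the other group, they were 0 to 218 genes and 0 kinesins, with 218 when saline replicate 1 was left out. The kinesins lower at an unadjusted p under 0.05 numbered 8 to 13 with single samples left out, and those higher 0 to 1. The median of the mitotic kinesins was -0.57 with library size alone, -0.53 with upper-quartile normalization, -0.57 with 10 counts in every sample, -0.58 with protein-coding genes only, -0.44 with the length trend removed, and -0.64 to -0.52 with samples left out. That of the transport kinesins was -0.15 with the length trend removed and -0.50 to -0.23 with samples left out, the first of these without ADC/cmLumiOpto replicate 2. The median of the cilium kinesins turned to -0.36 with 10 counts in every sample, since Kif19a and Kif27 then dropped out, and was 0.38 to 0.67 with samples left out. Upper-quartile normalization moved the median of all genes to 0.11 and no filter to 0.10.

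Of 414 values of single kinesins, 386 kept their sign and side of the threshold, 19 passed it in place of missing it and 9 changed sign, none of them called. Without the length trend the log2 fold changes were 0.033 for Kif26a, 0.11 for Kif1b and 0.080 for Kif5c. With single samples left out they ran from -0.34 to 0.14 for Kif26a, -0.28 to 0.13 for Kif5c, -0.78 to 0.92 for Kif21b and -0.19 to 0.71 for Kif1a, where values of either sign occurred, with Kif26a at 0.0020 without ADC/cmLumiOpto replicate 1 and Kif21b at -0.37 without saline replicate 2. The cause was not tested. For the replicate block, samples with the same number deviated from their group means with a correlation of 0.099 over genes, and nothing in the labels ties the numbers together. Members with few counts, namely Kif9, Kif27, Kif5c and Kif19a, had standard errors of 0.41 to 0.65, so differences of that size were not detectable.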
